A study of Mus musculus with 96 samples.

Results

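The interstitial collagen chains described here are 10 genes, Col1a1, Col1a2, Col3a1, Col5a1, Col5a2, Col6a1, Col6a2, Col6a3, Col12a1 and Col14a1, chosen by symbol from the 41575 gene symbols of a bulk RNA sequencing count table. All 10 were in the table, and their levels are given as CPM, the count of a gene scaled to the total count of its library. The libraries came from 16 whole organs or tissues of mice 3 weeks old that were either wild-type or Scx-/-, the latter lacking the tendon transcription factor Scleraxis throughout the body. Each tissue and genotype was represented by 3 libraries, which made 32 groups and 96 libraries. The question was how loss of Scx was reflected in the transcriptome of each organ. No mouse received an agent, and neither the sex of the mice nor which libraries came from one mouse is given in the sources used here, so p-values measure the spread between these libraries.

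Collagens are triple helices of 3 polypeptide chains, wound together at stretches in which glycine recurs at a fixed step, the Gly-X-Y repeat. Types I, III and V are the fibril-forming collagens of connective tissue: Col1a1 and Col1a2 encode the chains of type I collagen, the main protein of bone, tendon and skin, Col3a1 the chain of type III collagen of distensible organs and vessel walls, and Col5a1 and Col5a2 chains of type V collagen, which starts fibrils and limits their width. Col6a1, Col6a2 and Col6a3 encode the beaded-filament collagen VI around cells, and Col12a1 and Col14a1 encode fibril-associated collagens that lie on the fibril surface. Scleraxis is a basic helix-loop-helix factor of tendon progenitors, and factors of this class bind E-boxes, spelled CANNTG.

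The glycine repeat is what makes a transcript a collagen chain, so the first 54 coding bases of the longest uninterrupted repeat are shown for 4 chains with different roles, read from GENCODE transcripts (GRCm38), with the glycine codon that opens each Gly-X-Y triplet in capitals and all other codons, further glycines included, in lower case.
Col1a1: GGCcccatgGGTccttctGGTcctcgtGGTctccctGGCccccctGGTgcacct
Col3a1: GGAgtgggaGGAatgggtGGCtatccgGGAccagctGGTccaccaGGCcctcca
Col6a1: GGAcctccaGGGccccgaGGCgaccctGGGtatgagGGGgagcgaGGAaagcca
Col12a1: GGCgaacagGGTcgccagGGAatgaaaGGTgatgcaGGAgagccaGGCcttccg
The repeat ran for 338 triplets without a break in Col1a1, 339 in Col1a2, 344 in Col3a1, 338 in Col5a1 and 339 in Col5a2. It was shorter in the chains that do not form fibrils by themselves, with 87 triplets in Col6a1, 87 in Col6a2, 45 in Col6a3, 32 in Col12a1 and 32 in Col14a1. Repeats of at least 5 triplets covered 77.2% of the codons of Col1a2 but 8.2% of those of Col12a1. The 10 genes lie on 7 chromosomes, and Col3a1 (chromosome 1, 45311538 to 45349706, plus strand) and Col5a2 (chromosome 1, 45374321 to 45503282, minus strand) are neighbours that do not overlap, as are Col6a2 (chromosome 10, 76595762 to 76623630) and Col6a1 (chromosome 10, 76708792 to 76726168), both on the minus strand.

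RefSeq start sites (GRCm38.p6) were available for 6 of the 10 chains, and the 250 bases before them were searched for CANNTG, a motif that reads the same on both strands. The promoter with the most matches, that of Col3a1, is shown as an example, and binding of Scleraxis to it was not tested. The Col3a1 window, chr1:45311288-45311537 on the plus strand, held 4 matches, in capitals here, and 1 of them was CAGATG, found with its reverse complement CATCTG in 14.4% of the 32851 promoter windows of RefSeq.
Col3a1: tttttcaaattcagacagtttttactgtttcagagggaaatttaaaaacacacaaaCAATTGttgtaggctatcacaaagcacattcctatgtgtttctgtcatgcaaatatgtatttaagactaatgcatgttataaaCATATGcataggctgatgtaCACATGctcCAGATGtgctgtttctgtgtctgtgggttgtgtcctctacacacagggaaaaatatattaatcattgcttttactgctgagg
The windows of Col1a2, Col5a1, Col6a2 and Col6a3 held no match, that of Col6a1 held 1, and 66.2% of all windows held at least 1. Col3a1 and Col1a2 were both among the chains called in bladder below. Scx itself had 0 counts in the bladder libraries of both genotypes.

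Library totals ran from 11244 to 1658192 counts with a median of 251640, and 8 of the 96 libraries had fewer than 50000. The lowest was wild-type heart replicate 2, and wild-type muscle replicate 1 held 30409. Scx was counted in 12 of the 48 wild-type libraries (80 counts) and in 1 of the 48 Scx-/- libraries, where the library labelled Scx-/- cartilage replicate 1 held 9 counts; which part of the gene the allele lacks is not given in the sources used here. Several tissues carried markers of other tissues. The libraries labelled cartilage carried 113050 to 143485 CPM of 8 skeletal muscle markers against 2235 to 15266 CPM of 9 chondrocyte markers, bone carried 21505 to 86606 CPM of those muscle markers against 5241 to 8668 of 8 osteoblast markers, those labelled adipose carried 266328 to 358369 CPM of 7 pancreatic acinar markers, and the vascular libraries were set aside by the study for brown fat genes and are left out of the tests averaged over tissues here, but not of the counts over 16 tissues or the 32 group means. Rectum libraries of Scx-/- mice carried 4398 to 14166 CPM of 5 keratinocyte markers, against at most 27.6 in wild-type rectum. Whole organs were sequenced, so fewer collagen-producing cells and less collagen RNA per cell cannot be told apart.

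In wild-type mice the type I chains were most abundant in bone and least abundant in the brain tissues. Col1a1 was highest in bone, at 48480, 47136 and 57775 CPM, followed by cartilage at 7033, 37090 and 34742 CPM and bladder at 9316, 11344 and 14889 CPM. Bone lay apart from cartilage, and bladder apart from muscle, which had 4374, 4016 and 6935 CPM; muscle, vascular (4227 ± 1502 CPM, SD, n = 3) and rectum (3909 ± 554) overlapped with each other. Heart, lung and stomach (means of 1351 to 1420 CPM) lay below rectum without overlap. Stomach, at 1044 CPM or more, also lay above intestine (569 to 1022 CPM), which heart and lung overlapped, and from intestine down each tissue overlapped the next, to 88.7 ± 14.2 CPM in cortex.

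Col1a2 followed nearly the same order, from 51542 ± 6142 CPM in bone to 57.0 ± 54.6 CPM in hippocampus. Col3a1 did not. It was highest in bladder, at 7399, 8122 and 11694 CPM, above rectum (4431 CPM), which overlapped bone (3956 CPM), and it was lowest in cortex at 13.9 ± 5.47 CPM.

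**Figure D1:**
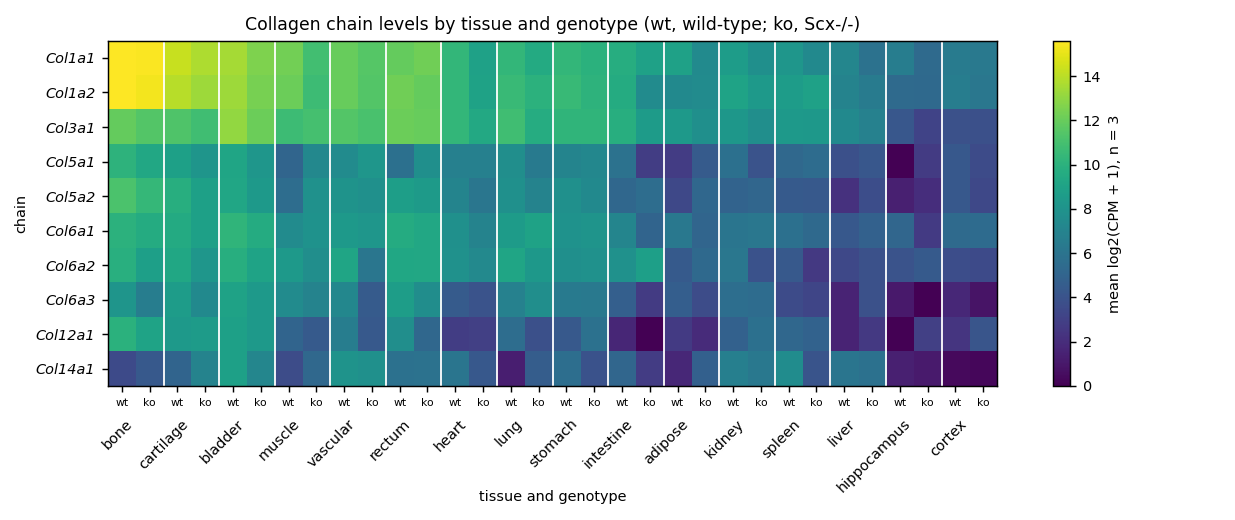
Mean log2(CPM + 1) of the 10 chains (rows) in the 16 tissues (pairs of columns, wild-type and Scx-/-, n = 3 libraries each), with tissues ordered by wild-type Col1a1. The type I chains are highest in bone at the left and lowest in the brain tissues at the right, Col14a1 follows another order, and the difference between tissues is larger than that between genotypes.

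The study describes its libraries as enriched for transcript 3′ ends, so counts do not scale with transcript length and a ratio or share of counts between chains is not a ratio of transcripts; such ratios are given below only to compare libraries. Col5a2 was highest in bone (2350 ± 236 CPM), as were Col5a1 (1102 ± 158) and Col12a1 (1057 ± 419). Col6a1 was highest in bladder (1157 ± 234), where it overlapped bone (1052 ± 153), and Col6a2 was highest in bone (1120 ± 931) with wide spread between libraries, at 511, 2192 and 658 CPM. Col6a3 was highest in bladder too (522 ± 130), where it overlapped cartilage (439 ± 205). Col14a1 was highest in bladder (470 ± 58.4 CPM), apart from vascular (280 CPM), spleen came next (193 CPM), and bone had 25.4 ± 25.1 CPM. Over the 32 group means of log2(CPM + 1), the correlation between pairs of chains had a median of 0.839 over 45 pairs. It was highest for Col1a1 with Col1a2 (0.978) and lowest for Col6a2 with Col14a1 (0.318), and Col14a1 had a median of 0.425 with the other 9. The points share libraries and depth, so these values are a description.

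The 10 chains together took 11.4% ± 0.574 of all counts in wild-type bone, 3.58% ± 0.772 in bladder, 1.26% ± 0.294 in muscle and 0.0269% ± 0.00218 in hippocampus (SD, n = 3). The type I chains made up 88.2 to 91.7% of that collagen count in wild-type bone and 60.3 to 62.9% in wild-type bladder.

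To set the limb against other organs, the mean log2 level over muscle, bone and cartilage was compared with that over 12 other tissues (all but vascular) in wild-type mice, in one edgeR quasi-likelihood fit over all 32 groups with Benjamini-Hochberg adjustment over 13459 genes. Of the 10 chains, 9 were higher in the limb tissues, against 5.83% of all genes tested. The log2 difference was 4.92 ± 0.16 (SE) for Col1a1, 4.72 ± 0.20 for Col1a2, 3.93 ± 0.26 for Col5a2, 2.64 ± 0.18 for Col3a1, 2.64 ± 0.26 for Col6a2, 2.67 ± 0.36 for Col6a3 and 2.19 ± 0.25 for Col6a1, the largest adjusted p among them being 3.82e-11. Col5a1 and Col12a1 had no count in wild-type hippocampus, which leaves their averaged difference without an error. Without hippocampus they were still higher, with adjusted p of 2.49e-16 and 2.59e-15. Col14a1 differed by 0.58 ± 0.60, with an adjusted p of 0.991.

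The main comparison was between genotypes within a tissue, by edgeR's quasi-likelihood test on 3 against 3 libraries, in 10993 to 16842 genes per tissue. The collagen chains were lower in Scx-/- mice more often than genes at large were. Of the 160 combinations of chain and tissue, 31 had all 3 Scx-/- libraries below all 3 wild-type libraries in CPM and 1 had all 3 above, Col6a3 in liver. These are 19.4% lower and 0.625% higher, whereas over all genes and tissues 3.86% were lower and 4.11% higher. Most genes of the table are rarely counted, and among genes with a mean of at least 10 CPM in the tissue the shares were 5.45% and 5.40%. The chains follow each other across libraries, so the 31 are not 31 separate observations. Without vascular, adipose and cartilage 29 of 130 were lower without overlap and 1 higher, and without bone and rectum as well 23 of 110 and 1.

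By the thresholds of the study, p under 0.05 before adjustment with a change over 2-fold, 9 of the 160 were lower in Scx-/- and 0 were higher; over all genes 1.85% were called lower and 1.85% higher. The 9 were Col3a1, Col5a1 and Col14a1 in bladder, Col6a2 and Col6a3 in cartilage, Col1a1 and Col6a2 in kidney, Col1a2 in intestine and Col14a1 in spleen. With adjustment over all genes of the tissue, 4 of the 160 were called, all in bladder and all lower, against 0.0323% of all genes called lower over the 16 tissues. The log2 fold change was below 0 in 108 of the 160 values (67.5%, median -0.42), against 49.1% and a median of 0.03 over all genes tested. Col1a1 was below 0 in 14 of 16 tissues (median -0.92), Col6a3 in 13, Col1a2 and Col3a1 in 12, and Col5a1 in 7. Without vascular, adipose and cartilage 85 of 130 values were below 0, and without bone and rectum as well 71 of 110; in both cases 7 were called lower at the study's thresholds and 4 after adjustment.

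**Figure D2:**
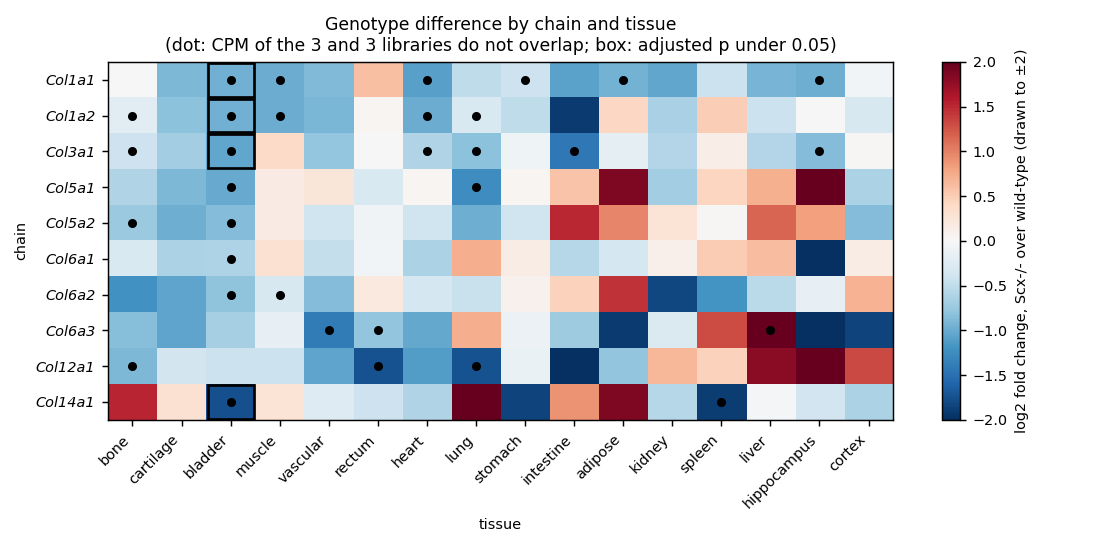
Log2 fold change of Scx-/- over wild-type for each chain (rows) and tissue (columns, in the order of wild-type Col1a1 level), drawn to a limit of 2 in either direction. Dots mark combinations whose 3 and 3 CPM values do not overlap, 31 lower and 1 higher, and boxes mark the 4 with an adjusted p under 0.05 (edgeR), all of them in bladder.

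Bladder showed the genotype difference most clearly: all 10 chains had a lower mean in Scx-/- libraries, 8 of them without overlap, against 5.18% of all genes in bladder. At the study's thresholds 3 of the 10 were called, with 1.95% of bladder genes called lower, and with adjustment 4 of the 10, with 0.0792% called lower. Col1a1 had 9316, 11344 and 14889 CPM in wild-type and 5679, 6395 and 7094 in Scx-/- libraries, a log2 fold change of -0.96 ± 0.17 (SE) with an adjusted p of 0.000146 (edgeR). Col1a2 had 8258, 9948 and 12131 CPM against 4767, 5749 and 5794, a log2 fold change of -0.97 ± 0.18 with an adjusted p of 0.000230 (edgeR). Both type I chains lay at about the same ratio to each other in every bladder library, with Col1a1 at 1.13 to 1.23 times the count of Col1a2 in wild-type and 1.11 to 1.22 times in Scx-/-.

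Col3a1 had 7399, 8122 and 11694 CPM in wild-type bladder and 3510, 5465 and 4835 in Scx-/- bladder, a log2 fold change of -1.05 ± 0.18 with an adjusted p of 7.86e-05 (edgeR). Col14a1, which lines the surface of fibrils, had the largest difference, with 434, 439 and 537 CPM against 116, 153 and 173, a log2 fold change of -1.75 ± 0.37 and an adjusted p of 0.00255 (edgeR). Neither gene had a Scx-/- library within the wild-type range. Of the others, Col5a1 had 529, 510 and 695 CPM against 187, 309 and 416 (log2 fold change -1.01, adjusted p = 0.499, edgeR). Col5a2, Col6a1 and Col6a2 also did not overlap, with log2 fold changes of -0.87, -0.62 and -0.81, and Col6a3 and Col12a1 overlapped, at -0.66 and -0.43.

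**Figure D3:**
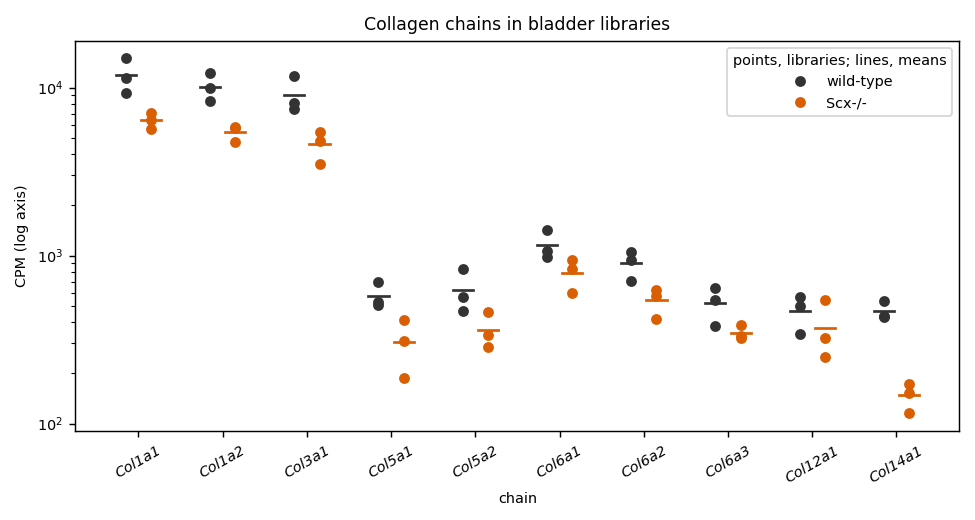
CPM on a log axis of the 10 chains in the 3 wild-type and 3 Scx-/- bladder libraries (points) with group means (lines). The 3 Scx-/- points lie below the 3 wild-type points for every chain but Col6a3 and Col12a1.

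The bladder calls were lost under some alternatives. When weakly counted genes were removed first with edgeR's filterByExpr, the adjusted p of Col1a1, Col1a2 and Col14a1 rose to 0.226 and that of Col3a1 to 0.238, and in the fit over all 32 groups it was 0.987 for Col14a1 and 1.00 for the other three, with nearly the same fold changes. Without wild-type replicate 3, the adjusted p of Col14a1 was 0.0810 (edgeR). Other measures also moved with genotype in bladder. Library totals were 437302 to 587936 counts in wild-type and 243008 to 412594 in Scx-/-. The 10 fibroblast markers summed to 18425 to 24100 CPM in wild-type and 12649 to 14325 in Scx-/-, and without Col1a1, which is on that list, the other 9 summed to 9129, 7082 and 9211 against 6971, 6444 and 7230 CPM, with none of the markers at 0 in either group. The 6 smooth muscle markers overlapped (31351 to 54392 and 26997 to 51581 CPM), the 5 endothelial markers were lower without overlap in Scx-/- (123 to 226 against 103 to 121 CPM), and of 3 uroplakin genes of the bladder lining, which were on no list, Upk1b was higher without overlap in Scx-/- (1143 to 1663 against 1852 to 1897 CPM) while Upk2 (279 to 873 against 577 to 823) and Upk3a (1630 to 2709 against 2448 to 3182) overlapped. The part of these in the collagen difference was not tested.

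In muscle the type I chains separated the genotypes, and the other fibril-forming chains overlapped. Col5a1 and Col5a2 had log2 fold changes of 0.17 and 0.16 there (edgeR). Col1a1 had 4374, 4016 and 6935 CPM in wild-type and 2685, 2099 and 1316 in Scx-/- libraries, without overlap (log2 fold change -0.996 ± 0.37, adjusted p = 0.771, edgeR). Col1a2 had 4308, 3617 and 5357 CPM against 1958, 2053 and 1179, again without overlap (log2 fold change -0.997 ± 0.38, adjusted p = 0.771, edgeR). Col3a1 had 888, 2624 and 2143 CPM against 2087, 2547 and 1633, so its groups overlapped (log2 fold change 0.38 ± 0.40, edgeR, where the median of all muscle genes was 0.24). Col6a2 was the other chain lower without overlap, at 460, 278 and 316 against 189, 206 and 227 CPM (log2 fold change -0.33 ± 0.60), which made 3 of 10 against 2.17% of muscle genes. Wild-type muscle replicate 1 held only 30409 counts, among them 27 of Col3a1. Without that library the edgeR log2 fold change was -1.29 for Col1a1 with an adjusted p of 0.000231, -1.24 for Col1a2 with an adjusted p of 2.04e-08, and -0.04 for Col3a1 with an adjusted p of 0.982. The 6 tenocyte markers, Scx among them, summed to 178 to 738 CPM in wild-type and 28.5 to 104 in Scx-/- muscle, to 1118 to 2228 against 451 to 915 in bone, and to 71.4 to 176 against 6.24 to 49.4 in bladder, without overlap in any of these 3 tissues. They overlapped in cartilage (748 to 1327 against 351 to 1993 CPM) and in the other tissues except heart. Their part in the collagen differences was not tested.

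The ratio of Col1a1 to Col3a1 within a library does not depend on the scaling between libraries. In muscle it was 4.93, 1.53 and 3.24 in wild-type and 1.29, 0.824 and 0.806 in Scx-/- libraries, a difference of -1.61 on the log2 scale with no overlap; the exact two-sided permutation p was 0.1, the smallest that 3 against 3 allows, and 0.475 after adjustment over the 38 ratio comparisons made. The ratio of Col1a1 to Col1a2 overlapped in muscle and in 13 further tissues, and was higher without overlap in Scx-/- rectum (0.876, 0.910 and 0.696 against 1.14, 1.19 and 1.38) and intestine (a log2 difference of 1.29, on as few as 3 counts), each with an exact permutation p of 0.1 and an adjusted p of 0.475. In stomach the Col1a1 to Col3a1 ratio was also lower without overlap (0.992, 1.19 and 1.15 against 0.834, 0.910 and 0.913), and in the other 14 tissues the genotypes overlapped. Between tissues, over the 6 libraries of both genotypes, bone had 10.6 to 21.3 Col1a1 counts per Col3a1 count and muscle 0.806 to 4.93 (exact permutation p = 0.00216, the smallest for 6 against 6, adjusted 0.0274), a difference of 3.14 on the log2 scale; bone exceeded bladder by 3.43 and cartilage by 0.863, with the same p.

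**Figure D4:**
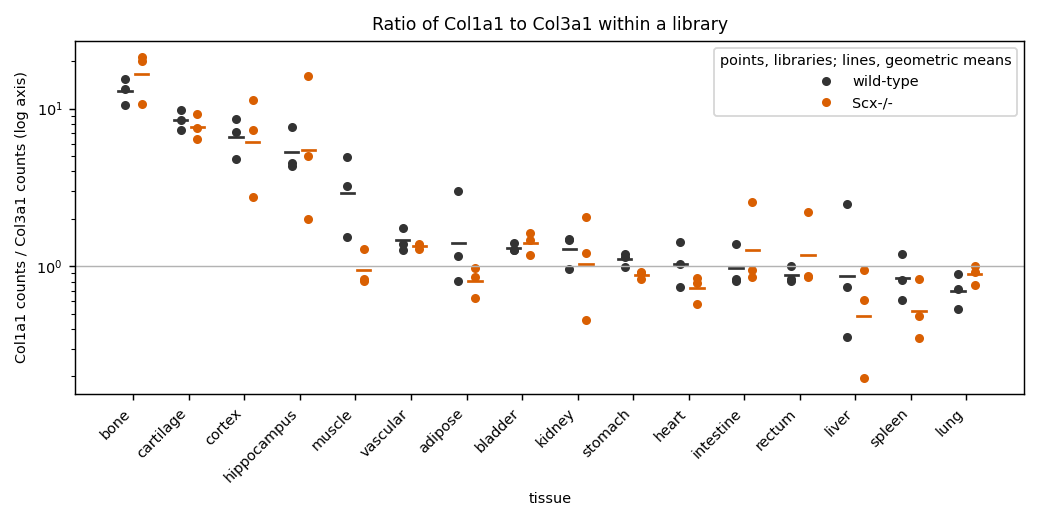
Ratio of Col1a1 to Col3a1 counts within each library (points; log axis) by tissue and genotype, with geometric means (lines) and a grey line at 1. Bone, cartilage and the brain tissues lie highest, but the brain ratios rest on as few as 2 counts in hippocampus and 7 in cortex. The muscle libraries of Scx-/- mice (0.806 to 1.29) lie below those of wild-type mice (1.53 to 4.93).

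In bone, where collagen was most abundant, Col1a1 did not separate the genotypes, with 48480, 47136 and 57775 CPM in wild-type and 53765, 48668 and 37850 in Scx-/- libraries (log2 fold change 0.01 ± 0.19, edgeR). Col1a2 was lower in CPM without overlap, at 58586, 47304 and 48737 against 43643, 42915 and 37259, but by a log2 fold change of only -0.21 ± 0.19 (adjusted p = 0.678, edgeR). Col3a1 (3623, 4468 and 3777 against 2519, 2430 and 3525 CPM), Col5a2 (2150, 2610 and 2291 against 977, 1263 and 1845 CPM) and Col12a1 (1474, 636 and 1061 against 557, 595 and 426 CPM) also did not overlap, with log2 fold changes of -0.42, -0.75 and -0.90. These were 4 of 10 chains, against 2.93% of bone genes lower without overlap. The 8 osteoblast markers overlapped between genotypes in bone, with sums of 5241 to 8668 and 6261 to 7100 CPM.

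The libraries labelled cartilage were split by 1 wild-type library. Col1a1 had 7033, 37090 and 34742 CPM in wild-type and 11698, 13971 and 14354 in Scx-/- libraries, Col1a2 had 4926, 25684 and 25470 against 8998, 8746 and 12572, and Col3a1 had 960, 3782 and 4130 against 1815, 1505 and 1895. For all 3 chains wild-type replicate 1 lay below every Scx-/- library and the other two wild-type libraries above. With all libraries Col1a1 had a log2 fold change of -0.91 ± 0.68 and an adjusted p of 0.769 (edgeR). Without wild-type replicate 1 it was -1.34 with an adjusted p of 5.19e-12, and Col1a2 was -1.24 with an adjusted p of 1.14e-08 (edgeR). That library was picked after its values of these chains were seen, so the small p-values cannot be taken as a test of genotype. Over all cartilage genes 1 was called lower and 2 higher after adjustment with all libraries, and 5 and 5 without it. Wild-type replicate 1 was also the lowest for the 9 fibroblast markers other than Col1a1, at 1974 CPM. The other wild-type libraries had 4141 and 3416, and those of Scx-/- 2362 to 2564. The 7 cardiomyocyte markers (207 to 351 against 28.9 to 90.6 CPM) and the 7 pancreatic acinar markers (297 to 767 against 1622 to 2142 CPM) separated the genotypes in cartilage without overlap, and their part was not tested.

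At the study's thresholds the cartilage calls were Col6a2 (331, 1073 and 740 against 356, 482 and 141 CPM, log2 fold change -1.06 ± 0.45, adjusted p = 0.769, edgeR) and Col6a3 (207, 516 and 595 against 389, 97.4 and 120 CPM, -1.05 ± 0.52, adjusted p = 0.769, edgeR). Both overlapped between genotypes, 1.46% of genes were called lower in cartilage, and without the Scx-/- library that held Scx counts the log2 fold changes were -1.14 for Col6a2 and -1.94 for Col6a3. The fold change was below 0 in 9 of 10 cartilage chains, against 47.8% of all cartilage genes, and 0 of 10 were lower without overlap, against 3.27%.

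**Figure D5:**
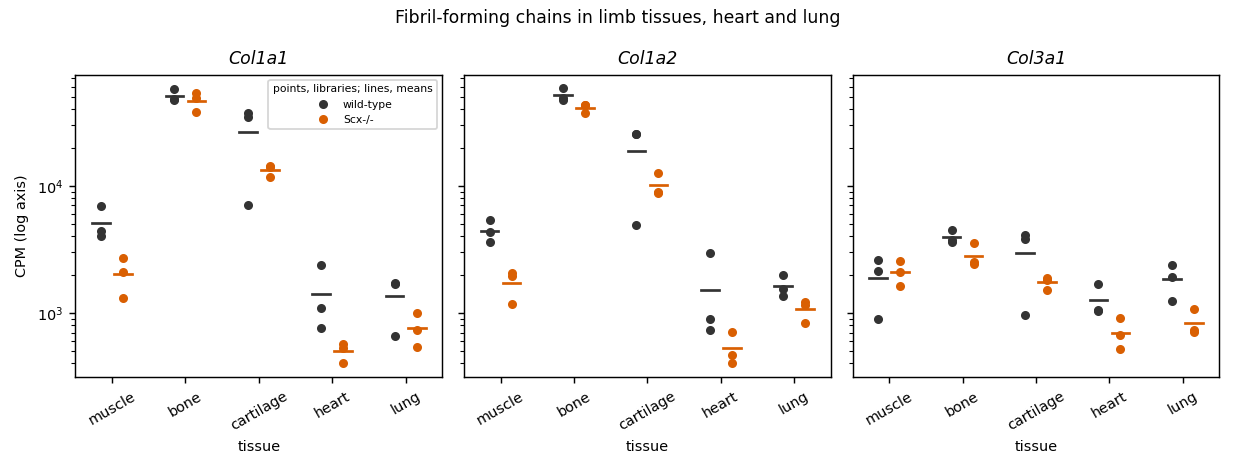
CPM on a log axis of Col1a1, Col1a2 and Col3a1 in muscle, bone, cartilage, heart and lung, for 3 wild-type and 3 Scx-/- libraries each (points) with group means (lines). In muscle the type I chains separate the genotypes and Col3a1 does not, and in cartilage 1 wild-type library lies below the Scx-/- libraries.

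In heart 3 of 10 chains, Col1a1, Col1a2 and Col3a1, were lower without overlap in Scx-/- libraries, against 2.20% of heart genes. Col1a1 had 764, 2401 and 1094 CPM in wild-type and 566, 526 and 404 in Scx-/-, Col1a2 had 727, 2935 and 902 against 470, 701 and 404, and Col3a1 had 1032, 1690 and 1048 against 671, 907 and 517. The highest wild-type value of each came from the library of 11244 counts, where Col1a1 rested on 27 counts. The log2 fold changes were -1.09, -0.99 and -0.61 with adjusted p-values of 0.738, 0.744 and 0.860 (edgeR), so none was called. The 9 fibroblast markers other than Col1a1 overlapped in heart, with 2312 to 2678 CPM in wild-type and 2036 to 2584 in Scx-/-. The 6 tenocyte markers did not overlap, with 47.7 to 978 against 0 to 43.1 CPM. Their lowest wild-type value lay only a little above the highest Scx-/- value, and the wild-type range includes the library of 11244 counts. The part of these markers was not tested.

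The calls in kidney, intestine and spleen rested on few counts or on overlapping libraries. Kidney Col1a1 had 277, 303 and 707 CPM in wild-type and 210, 157 and 305 in Scx-/- (log2 fold change -1.03 ± 0.31, adjusted p = 0.278, edgeR), and kidney Col6a2 had 47.3, 80.7 and 95.2 against 6.71, 52.2 and 8.25 (-1.82 ± 0.81, adjusted p = 0.791, edgeR); 2.69% of kidney genes were called lower. Kidney library totals did not overlap (672218 to 1015500 counts in wild-type and 242429 to 447350 in Scx-/-), and the 5 endothelial markers were lower without overlap in Scx-/- kidney (297 to 364 against 190 to 255 CPM); their part was not tested. Intestine Col1a2 had 548, 997 and 884 CPM against 564 and 113 CPM and, in replicate 2, 3 counts of 30014 (-1.92 ± 0.82, adjusted p = 0.652, edgeR), where 2.96% of genes were called lower, the median log2 fold change of all genes was -1.63, and the Scx-/- libraries held 26500 to 54955 counts. Spleen Col14a1 had 236, 176 and 169 CPM against 0, 53.6 and 88.1 (-1.90 ± 0.85, adjusted p = 0.788, edgeR), where 1.49% of genes were called lower; it was lower without overlap, as were 6.24% of spleen genes.

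Vascular libraries had 9 of 10 fold changes below 0, against 60.3% of all vascular genes. Col1a1 had 2695, 4288 and 5697 CPM in wild-type and 3425, 2243 and 3018 in Scx-/- (log2 fold change -0.88 ± 0.28, adjusted p = 0.672, edgeR), and Col1a2 had 2737, 4844 and 5578 against 3373, 1569 and 3745 (-0.92 ± 0.28, adjusted p = 0.672, edgeR). Both overlapped, and Col6a3 was the 1 chain without overlap there, against 5.06% of genes. The 4 brown fat markers (7086 to 13148 against 3499 to 6143 CPM) and the 5 endothelial markers (336 to 490 against 145 to 298 CPM) were also lower without overlap in Scx-/- vascular libraries, and their part was not tested.

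Lung and stomach each had 7 of 10 fold changes below 0, and rectum 6; over all genes 45.9% were below 0 in lung and 40.3% in rectum, and the stomach median was 0.14. In lung Col3a1 (1231, 1904 and 2369 against 1074, 708 and 727 CPM) and Col1a2 (1351, 1969 and 1541 against 1207, 1156 and 829 CPM) were among 4 of 10 chains lower without overlap, with Col5a1 and Col12a1, against 2.53% of lung genes, while 3 chains had positive log2 fold changes, Col6a1 of 0.73, Col6a3 of 0.72 and Col14a1 of 3.42 on 5 wild-type and 41 Scx-/- counts (14.6, 0 and 0 against 149, 101 and 0 CPM, adjusted p = 0.741, edgeR). In rectum Col1a1 had 3821, 3403 and 4501 CPM against 10393, 3497 and 3041, so that 1 Scx-/- library stood far above the rest and the log2 fold change was 0.59, while Col12a1 (189, 241 and 201 against 12.7, 30.3 and 111 CPM) and Col6a3 (326, 397 and 522 against 127, 238 and 252 CPM) were lower without overlap, against 2.23% of rectum genes. In the same libraries 6 smooth muscle markers were lower without overlap in Scx-/- (18929 to 22146 against 1347 to 16908 CPM), and skeletal muscle (221 to 4414 against 7115 to 10829 CPM) and keratinocyte markers were higher without overlap. The part of these in the rectum values was not tested. In cortex Col1a1 was 72.4, 96.5 and 97.3 against 133, 60.0 and 58.9 CPM. The spleen had 3 of 10 fold changes below 0 and liver 5, against 54.8% of spleen genes and 43.4% of liver genes.

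The genotype difference was then averaged over tissues in the fit over all 32 groups. That fit took the libraries as independent. If organs of the same mouse deviate together, the errors and p-values of these averages are too small. Over the 12 tissues outside the limb, Col1a1 was lower in Scx-/- by a log2 difference of -0.64 ± 0.13 with an adjusted p of 0.00177 (edgeR), and 0.0520% of genes were called lower. It was the only one of the 10 chains called. Col3a1 differed by -0.49 ± 0.16 (adjusted p = 0.384, edgeR) and Col1a2 by -0.42 ± 0.16 (adjusted p = 0.857, edgeR). Col5a1, Col6a3 and Col12a1 each had a group with no count among these tissues, so their averages have no error. The Col1a1 call was lost under limma-voom (-0.70, adjusted p = 0.665), when libraries under 50000 counts were left out (-0.59, adjusted p = 0.0605), without wild-type replicate 3 (-0.50, adjusted p = 0.211) and without Scx-/- replicate 2 (-0.49, adjusted p = 0.331); in these 4 alternatives the difference stayed below 0.

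Over muscle, bone and cartilage no chain was called after adjustment, and 0.00743% of genes were. At an unadjusted p under 0.05 there were 3 of 10, against 6.75% of genes: Col1a1 (-0.61 ± 0.24, adjusted p = 0.516), Col1a2 (-0.65 ± 0.29, adjusted p = 0.643) and Col6a2 (-0.85 ± 0.34, adjusted p = 0.539, all edgeR). limma-voom called 0 as well. The difference between the limb effect and the effect elsewhere was 0.03 ± 0.27 for Col1a1, -0.23 ± 0.33 for Col1a2 and 0.26 ± 0.29 for Col3a1 on the log2 scale, and 0 of the 7 chains that could be tested had an unadjusted p under 0.05 there, against 3.11% of genes, with 0.00743% of genes called after adjustment. A test across all 15 tissues for unequal genotype effects called none of the chains after adjustment (0.0520% of genes, edgeR), and Col14a1 alone, 1 of 10 against 5.82% of genes, had an unadjusted p under 0.05 (adjusted p = 0.801, edgeR).

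The proteins that fold, cut, crosslink and coat collagen were read from 7 lists. In bladder, 13 of 13 tested fibril-binding proteoglycans and glycoproteins had a log2 fold change below 0 (median -0.68), against 54.9% of all bladder genes (median -0.14). Of these, Sparc, a collagen-binding glycoprotein, had 7501, 10671 and 11827 CPM against 4666, 5424 and 6720 (log2 fold change -0.91, adjusted p = 0.000579, edgeR). Dpt, which encodes dermatopontin, had 522, 161 and 499 against 160, 93.6 and 169 (-1.55, adjusted p = 0.0439, edgeR). Sparc did not overlap between the genotypes, and Dpt did. These were 2 of 13 called after adjustment, against 0.0792% of bladder genes called lower. Both calls were lost with filterByExpr, where 0 bladder genes were called, and in the fit over all 32 groups, where 0 were called lower.

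Among 19 folding and modification genes tested in bladder, 14 were below 0. Against 0.0792% of bladder genes called lower after adjustment, 1 of them was called, Serpinh1, the collagen chaperone HSP47. It had 1015, 1772 and 1946 CPM in wild-type bladder and 744, 793 and 580 in Scx-/- bladder (log2 fold change -1.22, adjusted p = 0.00255, edgeR), without overlap. Serpinh1 was also called lower in kidney (422, 490 and 640 against 275, 212 and 202 CPM, -1.26, adjusted p = 0.0175, edgeR), as were 18 of 15377 kidney genes. It was called lower over the 12 tissues outside the limb as well (-0.90 ± 0.19, adjusted p = 0.00351, edgeR), against 0.0520% of genes. The kidney call was lost with filterByExpr and in the fit over all 32 groups, where 0 kidney genes were called. The call over the 12 tissues was lost without libraries under 50000 counts, where 0 genes were called lower. Of 10 propeptide cleavage and crosslinking genes tested in bladder 8 were below 0. Pcolce, the enhancer of C-propeptide cleavage, was the 1 called (338, 389 and 727 against 170, 147 and 160 CPM, -1.67, adjusted p = 0.00450, edgeR), against the same 0.0792%. The bladder calls of Serpinh1 and Pcolce were lost with filterByExpr, where 0 bladder genes were called. They were also lost in the fit over all 32 groups, where 0 bladder genes were called lower.

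Of 10 receptors tested in bladder, 9 were below 0 and 0 were called, with Itgb1, the shared beta chain of collagen-binding integrins, at 697, 707 and 656 CPM against 778, 836 and 708. The remaining lists were near the share of all bladder genes below 0: of 8 degradation genes 4 were below 0 (median -0.18), of 8 transcription and TGF-beta genes 5, and of 11 other fibrillar and fibril-associated collagens 6; none was called after adjustment by edgeR, and at an unadjusted p under 0.05 there was 1 lower degradation gene, Timp2, and 1 higher transcription gene, Tcf15, against 4.33% of bladder genes in either direction. Over all 16 tissues the one further call was Fmod in muscle, which encodes the fibril-binding fibromodulin, at 32.9, 43.6 and 276 CPM in wild-type and 2.37, 7.77 and 6.93 in Scx-/- libraries (log2 fold change -4.28, adjusted p = 0.0322, edgeR). No listed gene was called higher in Scx-/- in any tissue after adjustment. At the study's thresholds, against 1.85% lower and 1.85% higher of all tests, the cleavage and crosslinking list had 7 calls lower and 0 higher in 168 tests of a gene in a tissue and the fibril-binding list 10 and 1 in 207. The folding list had 9 and 4 in 302 tests, the receptors 5 and 1 in 148, the degradation genes 4 and 2 in 119, the transcription genes 4 and 2 in 119 and the other collagens 3 and 1 in 131. In wild-type mice 14 of 14 fibril-binding genes were higher in the limb tissues than elsewhere, as were 6 of 11 cleavage and crosslinking genes, 8 of 19 folding genes, 5 of 9 degradation genes, 4 of 10 other collagens, 3 of 10 receptors and 3 of 7 transcription genes, against the 5.83% of all genes given above.

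Among genes with a mean of at least 10 CPM, the 10 whose group means most resembled the chains over the 32 groups were Sparc (median correlation 0.852), Postn (0.848), Tpm2 (0.843), Lgals1 (0.834), Flnc (0.821), Adamts2 (0.816), Mmp2 (0.816), Rcn3 (0.815), Hspg2 (0.814) and Ahnak (0.806). Sparc had 4410 CPM on average over the 96 libraries, and Adamts2, the protease that removes the N-propeptide of fibrillar procollagens, 83.7 CPM. Their lowest correlation with a single chain ran from 0.329 for Flnc to 0.65 for Rcn3, and the points share tissues, libraries and depth.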

How the data were processed

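For each of 16 tissues and both genotypes, RNA in 3 libraries per group was reverse transcribed with SuperScript II and made into Nextera XT libraries, as the labels state. Per the labels and the submitters' processing notes, the authors aligned reads to mm10 with Bowtie2 and obtained gene counts with HTSeq; what was deposited are whole counts, neither normalized nor filtered. Versions, annotation, strand setting and the use of molecular identifiers are not stated by the sources used here, so counting intervals are not given and PCR copies may be included. Counts on bases that Col3a1 and Col5a1 share with other annotated genes cannot be told apart.

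CPM used library totals. Within a tissue, symbols without a count in its 6 libraries were dropped, counts were scaled by TMM, and edgeR 4.0.16 (R 4.3.3) gave quasi-likelihood tests with Benjamini-Hochberg adjustment. The joint fit used 32 groups and filterByExpr. A standard error is the log2 fold change before edgeR's prior count, without sign, divided by the square root of F. Calls were an adjusted p under 0.05 or the study's thresholds. DESeq2 1.42.0 and limma 3.58.1 were alternatives. The fits were run on simulated counts of fixed spread as a check of the code. Within a tissue the planted changes were larger than most differences given here, so that check does not bear on these calls. Replicate pairs of a group differed beyond sampling noise (chi-square per degree of freedom at least 6.93 over 96 pairs). The named genes were all 10 chains, with library values for those called and for Col1a1, Col1a2 and Col3a1 in muscle, heart, bone and cartilage. Listed genes were named where called. The 10 non-members most like the chains were also named. Values of other chains were chosen for overlap after they were seen, as were the uroplakins, Itgb1, Antxr1, Antxr2, Timp2 and Tcf15. Members, lists and tests were chosen with earlier results of these data known. Promoters and transcripts came from RefSeq (GRCm38.p6) and GENCODE (GRCm38).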

Additional observations from a re-analysis of the deposited data

How the results depend on the processing

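The number of the 160 chain and tissue values called at the study's thresholds was 9. It was 11 with DESeq2's size factors in edgeR, 14 with library totals as scaling and 12 with filterByExpr. DESeq2 gave 6 and the fit over all 32 groups 14. Leaving out 1 replicate of 1 genotype in every tissue gave 5 to 21, most without wild-type replicate 1. The 4 adjusted calls became 0 with filterByExpr and 0 in the 32-group fit, and 3 to 8 when 1 such replicate was left out. Counts over all genes also moved with the setting. In bladder 12 genes were called lower after adjustment, and 0 with filterByExpr. In muscle 5 were called lower and 2 higher, and 23 and 36 without wild-type replicate 1. The cause was not tested. The call of Col1a1 over the 12 tissues outside the limb, 1 of 10 chains, became 0 under limma-voom and 0 without libraries under 50000 counts, and 0 to 2 without 1 replicate; leaving out wild-type replicate 3 ended it, as did leaving out Scx-/- replicate 2. The 9 chains higher in wild-type limb tissues stayed 9 under every alternative run. Of the calls at the study's thresholds, 1 of the 21 without wild-type replicate 1 and 1 of the 14 in the 32-group fit was higher in Scx-/-. DESeq2's size factors moved the median gene by up to 0.37 (log2, intestine) and library totals by up to 0.42, and 5 and 10 of the 160 chain values changed sign. Leaving out vascular, adipose and cartilage, chosen after seeing the data, left 22.3% of chain values lower without overlap, and leaving out bone and rectum as well 20.9%. Same-numbered libraries did not deviate together: every correlation exceeded 0.1 in 0 of 16 tissues. The fit with a replicate block called 11 at the study's thresholds and 4 after adjustment. Libraries under 50000 counts limit what could be seen in bone, heart, intestine, lung, muscle and rectum.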
